A study of Mus musculus with 8 samples.

Results

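The promoters of the genes for cytosolic ribosomal proteins were followed in chromatin accessibility data from sorted mouse bone marrow cells. A gene was a member when it was an autosomal protein-coding gene of the GENCODE annotation of mm10 named Rpl or Rps with a number and an optional letter, Rplp0 to Rplp2, or Rpsa. Kinase genes of the Rps6k family, pseudogenes and paralogs with an added letter l were left out. The rule found 72 members among 20807 autosomal protein-coding genes, namely 40 Rpl genes, 3 Rplp genes and 29 Rps genes including Rpsa. They lay on 18 chromosomes. The libraries came from 4.5-month-old female mice on a mixed 129Sv4/Jae x B6 background, with about 10000 cells per reaction. From marrow, 2 populations without lineage markers were sorted, LSK+ cells (Sca-1-positive and c-Kit-positive, which include hematopoietic stem cells) and LSK- cells (Sca-1-negative and c-Kit-positive progenitors). Each was taken from wild-type (WT) mice and from XistΔ/Δ mice, in which Vav-iCre, a recombinase driven by regulatory sequence of a gene active in blood cells, had deleted both floxed copies of Xist. Deletion was thus limited to cells in which Vav-iCre acts and to their descendants. Each of the 4 groups held 2 libraries. The study calls its ATAC replicates biological, but the labels do not say whether they came from separate mice, so p-values measure the spread between libraries, which may be technical.

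Cytosolic ribosomes are built from a large and a small subunit, and nearly every subunit protein is encoded by 1 active gene. These genes are transcribed strongly in dividing cells, their promoters are rich in CpG, and their transcripts usually start in a stretch of pyrimidines, the terminal oligopyrimidine (TOP) tract through which their translation is controlled. In blood formation they are known for Diamond-Blackfan anemia, in which loss of 1 copy of a ribosomal protein gene impairs the making of red cells.

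ATAC-seq marks open chromatin by the insertion of Tn5 transposase, and the authors deposited a list of peaks for each library. The lists held 29829 to 91590 peaks on chromosomes 1 to 19 and X. A promoter peak was the peak with the lowest p among those whose summit lay within 1 kb of an annotated transcription start site of the gene. The strength of a peak is given as its percentile, its place by p in its own list on a scale to 100 for the lowest p, and, beside this, as its percentile among all autosomal promoter peaks of the library. The fold is the height of the summit over the local background. The deepest background, 3.87 fragments, was computed for LSK- XistΔ/Δ replicate 1 and the shallowest, 0.48, for LSK+ WT replicate 2, the library with the fewest peaks. The labels were checked on marker genes. Of 8 LSK- markers, the erythroid factors Klf1 and Gata1 had promoter peaks in 4 of 4 LSK- libraries and in 0 of 4 LSK+ libraries, and Elane had them in 2 LSK- libraries. The other 5 were not limited to LSK- cells, since Mpo and Epor had peaks in all 8 libraries, Fcgr3 in 3 of each cell type, Ctsg in 4 LSK- libraries and 1 LSK+ library and Cebpe in 2 LSK- libraries and 1 LSK+ library. The promoter of Kit had a peak in all 8 libraries. Of 9 genes of mature lineages, 7 had none in any library. The myeloid gene Itgam had one in 6 libraries, and 1 other gene of the 9 had one in all 8. Of 8 LSK+ markers, 5 had a promoter peak in all 8 libraries, Hlf among them. Ly6a, the gene of Sca-1, had none in any library. The rest of the 8 LSK+ markers had one in at least 4 but not all 8 libraries. How these split between the cell types is not given here. For Ly6a and the 5 with a peak throughout, the presence of a peak did not set LSK+ cells apart.

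The start regions of the strongest and the weakest promoters are shown first, so that both ends of the order can be compared. RefSeq promoter sequences on GRCm38.p6 (mm10) were matched for 52 of 72 members. Rps29 among the strongest and Rpl36 among the weakest were not matched. Each line runs from 60 bases before to 20 bases after the annotated start, with the longest run of C or T that reaches within 5 bases of the start in capitals. The strongest promoters were these.
Rpl27 (chr11:101442185-101442265, plus strand): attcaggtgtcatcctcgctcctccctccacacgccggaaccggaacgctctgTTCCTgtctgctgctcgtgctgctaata
Rpl13a (chr7:45128725-45128805, minus strand): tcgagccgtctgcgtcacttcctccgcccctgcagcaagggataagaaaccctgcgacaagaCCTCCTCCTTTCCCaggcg
Rpl37 (chr15:5116553-5116633, plus strand): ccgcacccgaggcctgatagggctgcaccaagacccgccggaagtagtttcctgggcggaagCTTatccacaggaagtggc
The weakest promoters were these.
Rpl4 (chr9:64173327-64173407, plus strand): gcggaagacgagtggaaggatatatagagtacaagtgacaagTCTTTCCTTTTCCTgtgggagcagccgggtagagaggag
Rps10 (chr17:27635224-27635304, minus strand): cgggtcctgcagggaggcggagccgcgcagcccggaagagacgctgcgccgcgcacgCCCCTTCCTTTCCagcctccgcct
Rpl38 (chr11:114668520-114668600, plus strand): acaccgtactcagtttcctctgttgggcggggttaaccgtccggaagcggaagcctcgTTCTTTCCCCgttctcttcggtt
Rpl6 (chr5:121204441-121204521, plus strand): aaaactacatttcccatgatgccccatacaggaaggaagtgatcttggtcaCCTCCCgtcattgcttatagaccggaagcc
The capitalised run was 5, 14 and 3 bases long in the strong promoters and 14, 13, 10 and 6 bases long in the weak ones. Long tracts thus stood in both sets. The 2 promoters that differed between cell types in 1 of the fits described further on are shown in the same way.
Rps12 (chr10:23787189-23787269, minus strand): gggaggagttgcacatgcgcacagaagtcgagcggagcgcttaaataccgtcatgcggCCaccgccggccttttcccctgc
Rpsa (chr9:120127706-120127786, plus strand): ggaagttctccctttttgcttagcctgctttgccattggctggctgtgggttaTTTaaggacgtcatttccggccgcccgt
Their runs were 2 and 3 bases long, and in Rps12 a longer pyrimidine run followed downstream, within the transcript. Over the 52 matched members, 24 (46.2%) had a run of 7 or more bases at the start, against 13.5% of 10298 matched promoters of autosomal genes. The start base was C in 19 members (36.5%), against 14.8%. Because fewer than 80% of members were matched, these shares describe those 52 promoters and not all members.

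Sequence was also read from the genome in 300 bp centred on the median summit, for all 72 members and all 13239 promoters with a peak in at least 4 of 8 libraries. The sequence TCTCGCGA, part of the palindrome TCTCGCGAGA, was found on either strand in 15 members (20.8%) and in 2.31% of all promoters. CCGGAAG, the core bound by ETS factors, was found in 29 members (40.3%) against 18.5%. ATGGCGG, a core of YY1 sites that can also span a start codon, was found in 20 members (27.8%) against 10.2%. The E-box CACGTG (18.1% against 10.5%), TATAAA (9.72% against 4.47%) and CTTTT (54.2% against 37.7%) were also found in a larger share of the members. The SP core GGGCGG (61.1% against 67.8%) and CCAAT (31.9% against 36.8%) were found in a smaller share, and GCATGCGC, part of the NRF1 site, in 6.94% against 5.36%. All motifs were searched on both strands, and TCTCGCGA and its reverse complement overlap in the palindrome. Among the members, carriers of the first 2 motifs were not set apart by level in one direction. The median of the mean percentile was 90.5 in the 15 carriers of TCTCGCGA and 93.8 in the other 57 members, and 93.2 in the 29 with CCGGAAG and 92.1 in the other 43. It was higher in carriers of the other motifs, as for TATAAA (96.0 in 7 members against 91.8) and CCAAT (94.7 against 91.8). The exception was GCATGCGC, at 87.4 in 5 carriers against 93.2. Motif counts are matches of letters in a window, not evidence of binding. GC content in the same window had a median of 60.7% in members and 64.3% in all promoters, and the observed to expected ratio of CpG had medians of 0.946 and 0.807.

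The matched promoters that hold TCTCGCGA close to the start are printed next, from 70 bases before to 10 after it, with the match in capitals. They are shown because this motif had the largest ratio of its share in members to its share in all promoters. By the difference of the shares CCGGAAG came first.
Rps19 (chr7:24884522-24884602, plus strand): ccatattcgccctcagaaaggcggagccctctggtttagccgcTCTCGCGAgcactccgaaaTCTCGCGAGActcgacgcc
Rpl12 (chr2:32961642-32961722, plus strand): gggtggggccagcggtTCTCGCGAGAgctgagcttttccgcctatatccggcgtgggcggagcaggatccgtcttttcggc
Rps6 (chr4:86857357-86857437, minus strand): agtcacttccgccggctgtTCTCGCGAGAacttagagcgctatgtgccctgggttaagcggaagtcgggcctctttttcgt
Rpl26 (chr11:68901496-68901576, plus strand): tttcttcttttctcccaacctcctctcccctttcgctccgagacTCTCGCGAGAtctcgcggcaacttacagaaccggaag
Rps28 (chr17:33824552-33824632, minus strand): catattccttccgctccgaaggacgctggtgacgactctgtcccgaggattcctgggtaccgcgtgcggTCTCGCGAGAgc
Rpl7a (chr2:26910737-26910817, plus strand): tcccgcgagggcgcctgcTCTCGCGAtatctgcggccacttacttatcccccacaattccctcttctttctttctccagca
Rps15a (chr7:118116137-118116217, minus strand): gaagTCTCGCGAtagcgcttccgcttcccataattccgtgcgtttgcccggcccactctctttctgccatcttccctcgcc
Rpl27a (chr7:109519125-109519205, plus strand): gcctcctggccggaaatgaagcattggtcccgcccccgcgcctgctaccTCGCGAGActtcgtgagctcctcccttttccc
In Rps19, the gene most often affected in Diamond-Blackfan anemia, the motif occurred in 2 separate stretches, one upstream of the start and one reaching it. Rps19 had no match in the 300 bp around its summit, so it was not among the carriers counted there. Its printed start, chr7:24884592, lay downstream of the start of the GENCODE gene, chr7:24884371. In Rps12, Rpsa and the 3 strong promoters shown above it was not in the printed stretch.

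All 72 members had a promoter peak in every library, 576 of 576. Over all autosomal protein-coding genes, 10922 of 20807 (52.5%) had a peak in all 8 libraries and 6281 had none in any. The member with the weakest single peak was Rps10, at percentile 42.1 in LSK- WT replicate 1, and this was the only one of the 576 values that did not exceed percentile 50. Of the 576 values, 398 were over percentile 90 and 246 over percentile 95.

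The median percentile of the members was 92.0 and 86.8 in the WT LSK+ libraries, 94.2 and 93.1 for XistΔ/Δ LSK+, 95.4 and 90.4 for WT LSK-, and 96.3 and 94.4 for XistΔ/Δ LSK-, in the order replicate 1 and replicate 2. Over all promoters with a peak the medians in the same order were 82.9 and 78.3, 83.7 and 87.3, 85.8 and 83.6, and 90.5 and 88.7. The members' median was above that of all promoters in all 8 libraries. Among promoter peaks only, their median stood between percentile 66.6, in LSK+ WT replicate 2, and percentile 76.4, in LSK- WT replicate 1. Of the members, 62 of 72 had a mean percentile among promoters above 50 and 2 had one above 95, so every member was open in every library while few were among the strongest promoters.

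**Figure D1:**
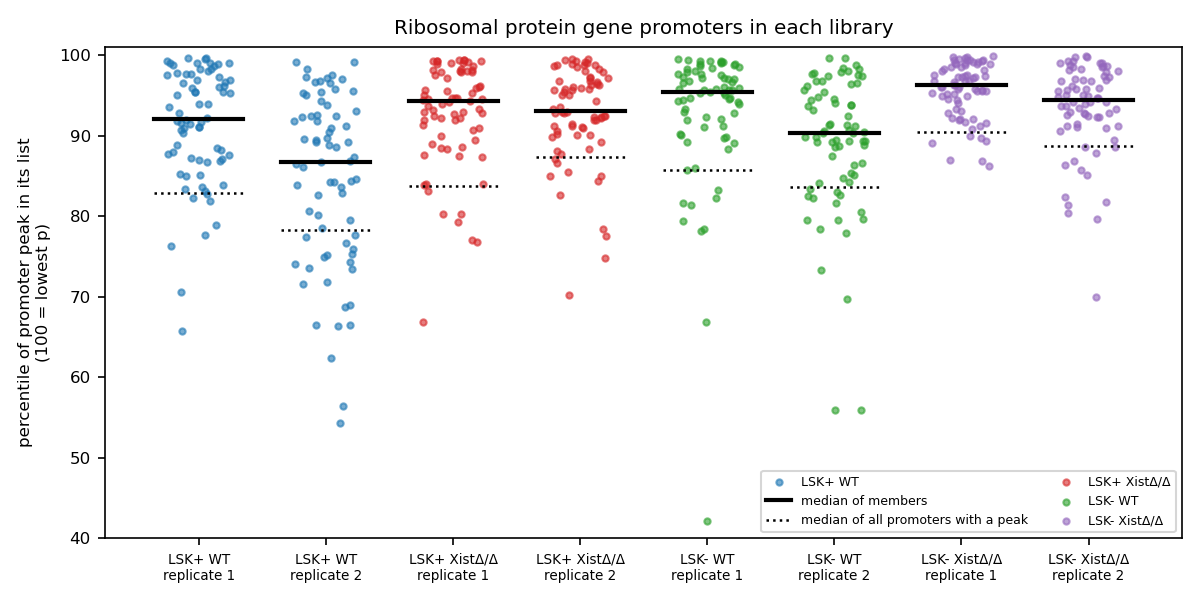
Percentile of the promoter peak of each of the 72 ribosomal protein genes (points) in the peak list of each library, coloured by group. Solid bars are the median of the members, from 86.8 to 96.3, and dotted bars the median of all autosomal protein-coding promoters with a peak, which is lower in each of the 8 libraries. The vertical axis starts at 40.

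The strongest promoter was that of Rps29 (chr12:69157722-69159186, minus strand), which encodes a small subunit protein, with a mean percentile of 99.3 over the 8 libraries. Its percentiles were 99.6 and 98.2 for WT LSK+, 99.3 and 99.5 for XistΔ/Δ LSK+, 99.0 and 99.6 for WT LSK-, and 99.7 and 99.3 for XistΔ/Δ LSK-, so no group stood apart. Rpl27 (chr11:101442298-101445529, plus strand), of the large subunit, had a mean of 99.1 and ranged from 97.2 in LSK+ WT replicate 2 to 99.9 in LSK- XistΔ/Δ replicate 1. Its mean fold of 24.6 was the highest of all members. Rpl13a (chr7:45125558-45128761, minus strand), whose protein also takes part in a block on translation in inflamed myeloid cells, had a mean of 98.8 and a narrow spread, from 98.3 to 99.3. Its gene body holds 4 small nucleolar RNA (snoRNA) genes. Rpl37 (chr15:5116645-5119140, plus strand) also had a mean of 98.8, but dipped to 95.7 in LSK- WT replicate 1 while reaching 99.8 in LSK- XistΔ/Δ replicate 2. The lowest values of Rps29 and Rpl27 came from LSK+ WT replicate 2, the library with the shortest list.

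The weakest promoter was that of Rpl4 (chr9:64173375-64178666, plus strand), a large subunit protein that lines the exit tunnel, with a mean percentile of 74.4. Its values were 86.8 and 56.5 for WT LSK+, 76.7 and 70.2 for XistΔ/Δ LSK+, 90.1 and 55.9 for WT LSK-, and 89.0 and 70.0 for XistΔ/Δ LSK-. Every replicate 1 value was above every replicate 2 value, so the replicate number split this gene and the groups did not. The peak was shared with the divergent gene Zwilch in all 8 libraries. Its summit lay at -436, -466 and -504 bp from the Rpl4 start in 3 of the replicate 2 libraries, upstream and on the side of Zwilch, and between -263 and 25 bp in the other 5.

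Rpl36 (chr17:56613416-56614243, plus strand) had a mean percentile of 77.6 and the lowest mean fold of the members, 7.47. Its percentiles were 70.6 and 62.4 for WT LSK+, 80.2 and 82.6 for XistΔ/Δ LSK+, 66.8 and 81.6 for WT LSK-, and 86.9 and 89.5 for XistΔ/Δ LSK-. Rps10 (chr17:27630418-27636669, minus strand), a small subunit protein that is ubiquitylated when ribosomes stall, had a mean of 78.7, and values of 65.7 and 75.1, 83.8 and 91.4, 42.1 and 89.3, and 86.9 and 95.03 in the same order. In each group replicate 2 was higher, the reverse of Rpl4. In LSK+ XistΔ/Δ replicate 1 the peak chosen for Rps10 was another one, 889 bp upstream of the nearest annotated start. Rpl38 (chr11:114668524-114672331, plus strand), known for its part in the translation of Hox messenger RNAs, had a mean of 79.0 with values between 54.4 and 92.2, and Rpl6 (chr5:121204481-121209241, plus strand) a mean of 80.5 with values between 55.9 and 91.1.

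Between these ends, 71 of 71 pairs of neighbours in the order of mean percentile had ranges over the 8 libraries that overlapped. Neighbours were set by the mean of the same libraries, and ranges were wide, from 42.1 to 95.03 for Rps10. Overlap was therefore nearly fixed in advance and does not test whether the order is continuous.

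**Figure D2:**
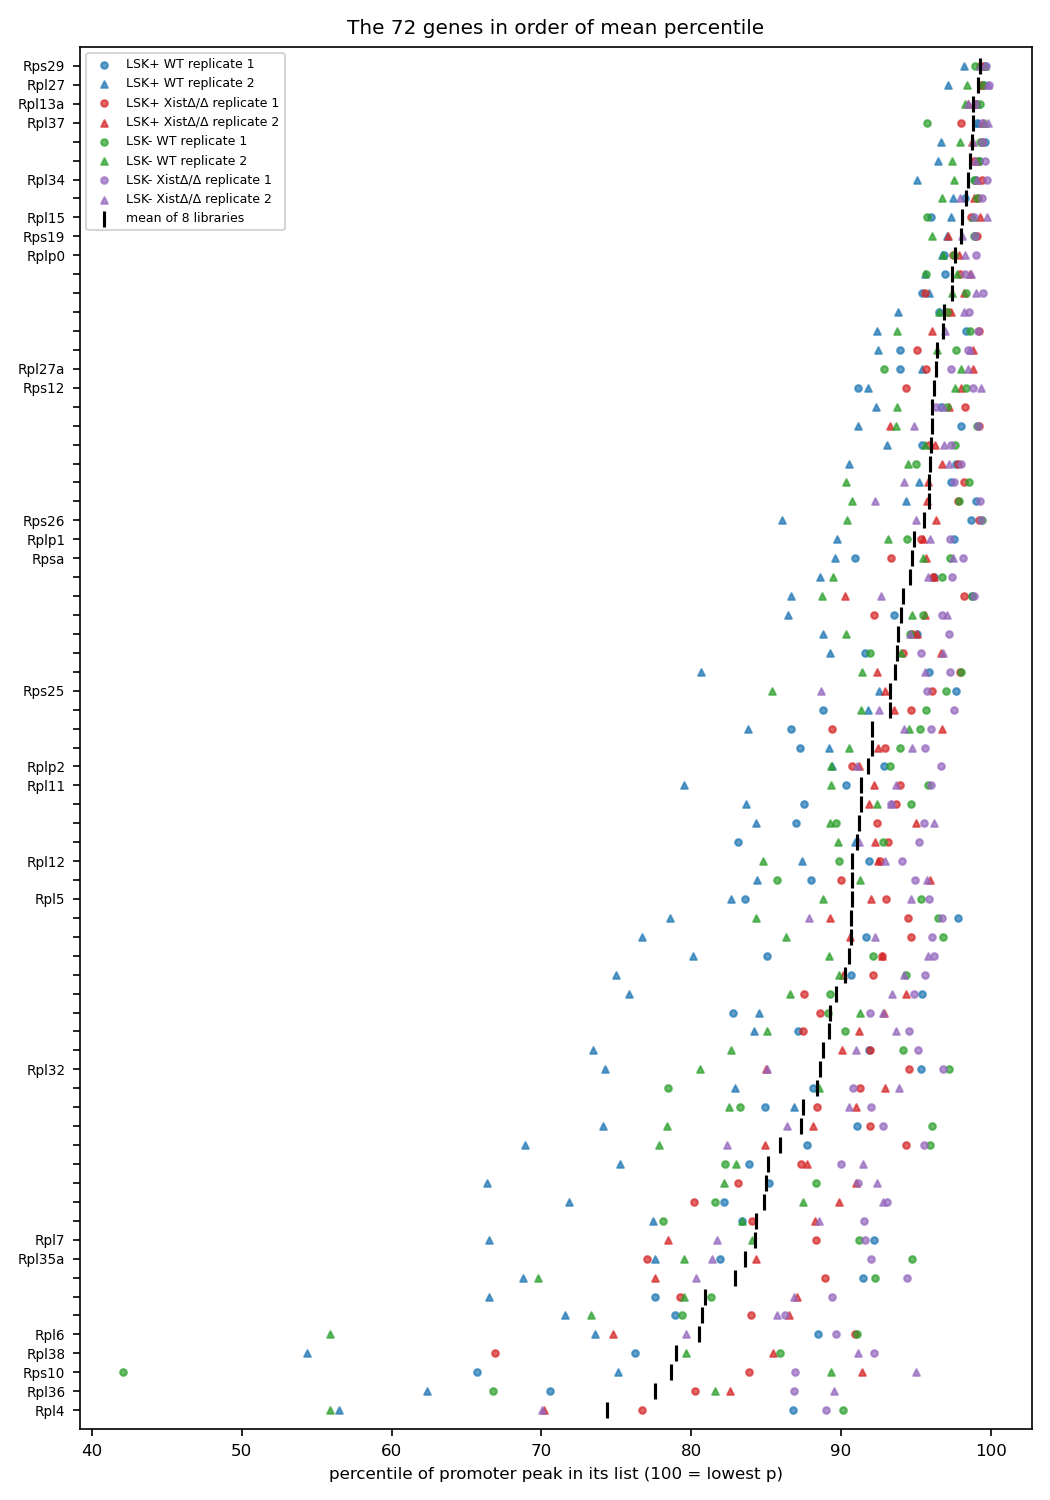
Percentile of the promoter peak in its list (horizontal axis) for each of the 72 genes, ordered from the lowest mean, Rpl4 at 74.4, to the highest, Rps29 at 99.3. Names are given for a selection of the genes. Colours are groups, circles are replicate 1, triangles replicate 2 and black ticks the mean of the 8 libraries, and the ranges of neighbouring genes overlap along the whole order.

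Summits of members lay close to the annotated start. Of the 576 summits, 475 (82.5%) lay within 100 bp of a start site of the gene, against 59.3% of the promoter summits of all autosomal protein-coding genes. The median offset was 24 bp upstream in members and 36 bp upstream in all, and 66.0% and 66.8% lay upstream. Only 2 member summits were over 500 bp away, those of Rpl4 in LSK- WT replicate 2 and of Rps10 in LSK+ XistΔ/Δ replicate 1. Rpl35 was an exception of another kind, singled out here after its values were seen. In all 8 libraries its summit lay 435 to 441 bp downstream of its GENCODE start, chr2:39005624. The matched RefSeq start of Rpl35, chr2:39005131, lay downstream of the GENCODE start and nearer to these summits. The offset of Rpl35 therefore depends on the annotation used. Across libraries the summit of a member moved over a median range of 72 bp.

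**Figure D3:**
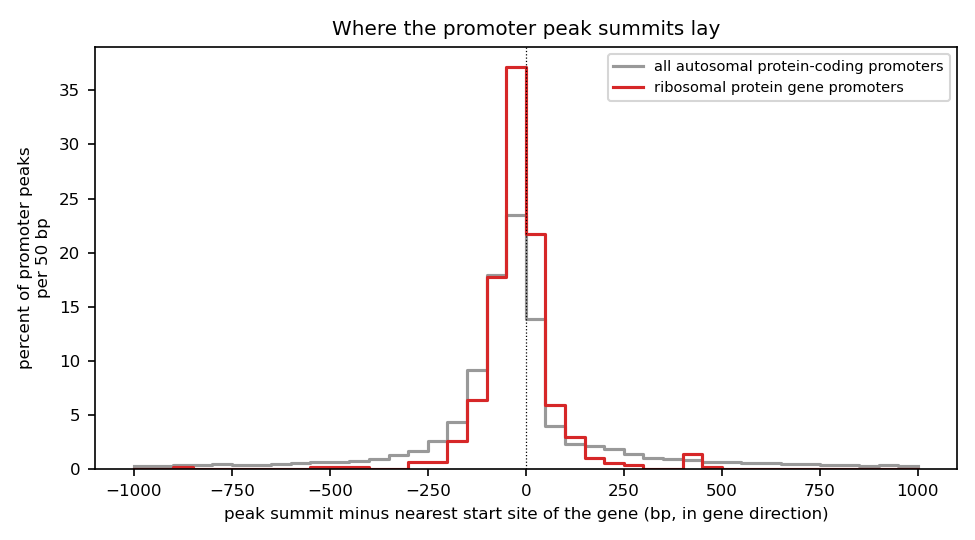
Share of promoter peak summits (percent per 50 bp bin) by distance in bp from the nearest annotated start site of the gene, with negative distances upstream. Within 100 bp lay 82.5% of the summits of the 72 members (red) and 59.3% of those of all autosomal protein-coding promoters (grey), each pooled over the 8 libraries.

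In 12 members the promoter peak was also the promoter peak of a divergent protein-coding gene in all 8 libraries. These pairs were Rpl4 with Zwilch, Rpl35a with Iqcg, Rps28 with Ndufa7, Rpl12 with Lrsam1, Rpl9 with Lias, Rps18 with Vps52, Rps25 with Trappc4, Rpl7a with Med22, Rps27a with Clhc1, Rps27 with Rab13, Rpl18 with Sphk2 and Rpl15 with Nkiras1. For these genes the accessibility of the partner and of the ribosomal protein gene cannot be told apart. Rps10 shared its peak in 7 libraries with an annotated read-through gene on the same strand. The median of the mean percentile was 93.3 in the 13 members with a divergent start within 1 kb and 92.1 in the others. It was 92.1 both in the 27 members whose gene body holds snoRNA genes on the same strand, 54 in all, and in the 45 without.

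Peak width did not follow strength closely. The widest mean widths were those of Rpl7 (1277 bp), Rpl4 (1099 bp) and Rps29 (1094 bp), of which Rps29 was the strongest promoter and Rpl4 the weakest. Rpl7, of the large subunit, measured 1875 and 1811 bp in replicate 2 of LSK+ XistΔ/Δ and of LSK- XistΔ/Δ but 1042 to 1218 bp in the other 6 libraries. Among the narrowest were Rpl36 (525 bp) and Rps15 (531 bp). Rpl36 ranged from 349 to 685 bp and Rps15 from 419 to 625 bp over the 8 libraries. Across the 72 members the Spearman correlation of mean width and mean percentile was 0.165, a description across genes that share the same 8 libraries.

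The 29 small subunit genes had a median of 94.1 for the mean percentile and the 43 large subunit genes a median of 90.8. Among promoters these medians were percentile 77.6 and 66.2. The 19 genes of a list of Diamond-Blackfan anemia genes had a median of 92.1, the same as all 72 members. They ran from Rps10 at 78.7 to Rps29 at 99.3. Rps19, a small subunit protein needed for ribosomal RNA processing, had a mean percentile of 98.0 and ranged from 96.1 to 99.1 over the 8 libraries. Rps26 had a mean of 95.6, but stood at 86.1 in LSK+ WT replicate 2 and at 99.4 in LSK- WT replicate 1. Rps24 had a mean of 92.1. Rpl35a was among the lower ones at 83.6, with Rpl35 at 85.1 and Rps15a at 86.0, while Rpl15 reached 98.1. Other genes of the list stood between 90.7 and 96.1, namely Rpl26, Rpl5, Rps28, Rpl11, Rps7, Rpl31, Rps27 and Rpl18. Rpl5 and Rpl11, which hold back the p53 inhibitor Mdm2 when ribosome assembly fails, had mean percentiles of 90.7 and 91.4.

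The stalk of the large subunit recruits translation factors. The promoter of its base, Rplp0, had a mean percentile of 97.6 and values from 96.7 to 99.0. Rplp1 and Rplp2, the acidic proteins that Rplp0 carries, had means of 94.9 and 91.8, and Rpl12, which sits beside them, one of 90.8. The highest percentile was 97.5 for Rplp1, which overlapped with Rplp0. The ranges of Rplp2, from a lowest value of 89.3, and of Rpl12, from 84.8 to 94.1, lay wholly below that of Rplp0.

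Related genes outside the rule by name or chromosome were open as well. The core ribosomal proteins Fau, Rack1 and Rps3a1 had peaks in all 8 libraries, with mean percentiles of 88.5, 90.3 and 97.1. The 4 X-linked genes had them too, from Rps4x at 77.7 over Rpl39 at 89.2 and Rpl36a at 89.7 to Rpl10 at 92.2. Of 8 annotated paralogs, Rpl7l1, Rps27l, Rpl36al and Rpl22l1 had a peak in all 8 libraries, at mean percentiles from 84.1 to 98.5, and Rpl10l, Rpl3l, Rpl39l and Rps27rt had none in any. All 78 genes of mitochondrial ribosomal proteins had a peak in all 8 libraries, with a median mean percentile among promoters of 58.5, from 20.3 for Mrpl53 to 98.7 for Mrpl18. For 23 translation factors of the TOP class this median was 71.0, from 30.2 for Eif3l to 94.4 for Eef1g, with a peak in all 8 libraries for all 23. For 43 ribosome biogenesis factors it was 66.2, and 42 had a peak in all 8, the exception being Taf1b with 6. The members' own median on this scale was 69.7.

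The study compared XistΔ/Δ with WT cells. The members' median percentile was 89.4 ± 3.72 (SD, n = 2) for WT LSK+ and 93.7 ± 0.806 for XistΔ/Δ LSK+, and 92.9 ± 3.57 for WT LSK- and 95.3 ± 1.32 for XistΔ/Δ LSK-. Averaged over the cell types, it was 3.37 higher in XistΔ/Δ. The median over all promoters was 4.92 higher, and in each of the 4 matched pairs the XistΔ/Δ library had the longer list. Within replicate 1 the members' difference was 1.54 and within replicate 2 it was 5.20, beside 2.78 and 7.07 over all promoters. When every list was shortened to 29829 peaks the members' difference was -0.126, the opposite direction, and that of all promoters 0.469.

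For the test, each promoter was given a rank score, the normal score of its rank by p among the 13239 promoters tested, so that 0 is the middle of the promoters of a library. With limma over all tested promoters and 4 groups, 0 of 72 members passed an adjusted p of 0.05 for XistΔ/Δ against WT, where 0 of 13239 promoters (0%) did. No member had an unadjusted p under 0.05. The median difference of the members was 0.05 on the rank score, against -0.0034 for all promoters, and 47 of 72 were positive. Leaving out each library in turn moved this median between 0.02, without LSK- WT replicate 2, and 0.07, without LSK+ WT replicate 1. A difference that misses the threshold with 2 libraries a group is not shown to be absent. The libraries that share a replicate number moved together, so the fit was repeated with that number as a block. The block called no member and 0 promoters (0%). In that fit 10 members had an unadjusted p under 0.05, and the lowest adjusted p of a member was 0.509. The share of all promoters with an unadjusted p under 0.05 was not counted. Such counts of members, here and below, therefore do not set the members apart from other promoters.

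The largest differences are given as a description. Rpl15 (chr14:18267823-18271391, minus strand), of the large subunit, was 0.45 ± 0.30 (SE) higher in XistΔ/Δ on the rank score. Its percentiles were 96.0 and 97.3 for WT LSK+, 98.7 and 99.3 for XistΔ/Δ LSK+, 95.8 and 98.8 for WT LSK-, and 98.9 and 99.8 for XistΔ/Δ LSK-. On the rank score, which ranks promoters only among themselves, the genotypes overlapped in both cell types, with 0.97 and 1.4997 against 1.47 and 1.78 in LSK+ cells and 0.81 and 1.79 against 1.35 and 2.28 in LSK- cells. Rps10 followed at 0.41 ± 0.34 and Rpl34 at 0.35 ± 0.18. The percentiles of Rpl34 were 98.9 and 95.1 against 99.4 and 99.1 in LSK+, and 98.9 and 97.6 against 99.7 and 99.1 in LSK-. On the rank score the 4 XistΔ/Δ libraries were all above the 4 WT libraries for Rpl34 and Rpl9, 2 of 72 members, where 1.31% of all tested promoters separated in one direction or the other. In the opposite direction stood Rps25, a small subunit protein used by viral internal ribosome entry sites, at -0.37 ± 0.24, Rpl35a at -0.35 ± 0.21 and Rpl7 at -0.34 ± 0.25. The percentiles of Rps25 were 97.7 and 92.5 for WT LSK+, 96.1 and 93.0 for XistΔ/Δ LSK+, 97.0 and 85.4 for WT LSK-, and 95.7 and 88.6 for XistΔ/Δ LSK-. These overlapped between the genotypes in both cell types. The adjusted p of each of these 6 genes was 1.00 in the limma fit without the block.

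LSK- cells were compared with LSK+ cells in the same fit. The members' median percentile was 2.57 higher in LSK- cells, averaged over the genotypes, and that of all promoters 4.08 higher. Within replicate 1 and replicate 2 the members' difference was 2.70 and 2.44. Without the block, 0 of 72 members passed the test, where 2 of 13239 promoters (0.0151%) did. The lowest adjusted p of a member was 0.394, and 4 members had an unadjusted p under 0.05. Over all promoters the median difference on the rank score was 0.0022. The median difference of the members was 0.05, with 47 of 72 positive. That median rested on single libraries: it was -0.0073 without LSK+ WT replicate 2 and -0.0063 without LSK- XistΔ/Δ replicate 1, with 35 of 72 positive in either case, and up to 0.10, without LSK+ WT replicate 1. The largest differences in favour of LSK- cells were those of Rps12, Rpl38 and Rpsa, at 0.65 ± 0.21, 0.47 ± 0.17 and 0.46 ± 0.15 (SE). Rpl38 stood at percentiles 76.3, 54.4, 66.9 and 85.5 in the LSK+ libraries and 86.0, 79.7, 92.2 and 91.1 in the LSK- libraries. In favour of LSK+ cells stood Rps25 at -0.43 ± 0.24, Rps27 at -0.27 ± 0.23 and Rps14 at -0.27 ± 0.31. Rps14, the small subunit gene linked to anemia in the 5q- syndrome, had percentiles of 99.0, 94.4, 97.8 and 95.8 in the LSK+ libraries and of 97.9, 90.8, 99.3 and 92.3 in the LSK- libraries, which overlapped. Rps27 overlapped too, with LSK+ values from 95.2 to 98.2 and LSK- values from 90.4 to 98.5.

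With the replicate number as a block, limma called 789 promoters (5.96%), 362 of them higher in LSK- cells, and 2 of 72 members, Rps12 and Rpsa, both higher in LSK- cells. This share of the members was below that of all promoters. Rps12 (chr10:23785183-23787275, minus strand), which encodes a small subunit protein and whose gene body holds 3 snoRNA genes, had percentiles of 91.1 and 91.8 for WT LSK+ and 94.4 and 98.0 for XistΔ/Δ LSK+. The WT LSK- libraries stood at 98.4 and 97.6 and the XistΔ/Δ LSK- libraries at 98.8 and 99.3. Its rank scores were 0.47, 0.86, 0.69 and 1.27 in the LSK+ libraries and 1.31, 1.43, 1.33 and 1.81 in the LSK- libraries, all 4 above the highest LSK+ value. The difference was 0.65 ± 0.13 (SE), with an adjusted p of 0.0137 with the block in limma and of 0.394 without it. It was 0.74 within replicate 1 and 0.56 within replicate 2.

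Rpsa (chr9:120127689-120132369, plus strand), a small subunit protein also known as the laminin receptor precursor and mutated in congenital absence of the spleen, had percentiles of 91.0 and 89.6 for WT LSK+ and 93.4 and 95.7 for XistΔ/Δ LSK+. The WT LSK- libraries stood at 97.3 and 95.4 and the XistΔ/Δ LSK- libraries at 98.1 and 97.5. The rank scores ran from 0.46 to 0.78 in the LSK+ libraries and from 1.06 to 1.13 in the LSK- libraries, without overlap. The difference was 0.46 ± 0.12 with an adjusted p of 0.0465 with the block in limma and of 0.423 without it. It was 0.55 within replicate 1 and 0.37 within replicate 2.

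Both calls were sensitive to single libraries. With the block in limma and any 1 of the 8 libraries left out, the adjusted p of Rpsa lay between 0.0588 and 0.202. That of Rps12 stayed at 0.0199 to 0.0304 without either LSK+ WT library, LSK+ XistΔ/Δ replicate 2 or LSK- WT replicate 2, and rose to 0.0630 to 0.0965 without any of the other 4. The differences themselves stayed positive, from 0.56 to 0.74 for Rps12 and from 0.42 to 0.50 for Rpsa. The 3 next members with the block were Rps25, lower in LSK- cells by a rank score difference of -0.43 (adjusted p 0.0664), and Rpl38 and Rpl22, with differences of 0.47 (adjusted p 0.0753) and 0.44 (adjusted p 0.0816). None of these 3 passed. Without a block, 5 of 72 members had LSK- and LSK+ libraries that did not overlap on the rank score, 4 higher in LSK- cells (Rps12, Rpsa, Rpl38 and Rps9) and Rpl37a lower, where 7.58% of all tested promoters did not overlap. Rpl22, Rps9 and Rpl37a, and Rpl9 in the comparison of genotypes, are named after their values were seen. The block called 3 of 5 tested LSK- marker promoters as higher and 1 of 7 tested LSK+ marker promoters as lower in LSK- cells, and also 1 of 4 markers of both populations as lower and 1 of 2 tested mature cell markers as higher. Of the other lists, it called 1 of 42 tested ribosome biogenesis promoters and 0 of 78 mitochondrial ribosomal protein promoters, 0 of 22 TOP factor promoters, 0 of 4 paralogs and 0 of 4 core proteins of other names.

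**Figure D4:**
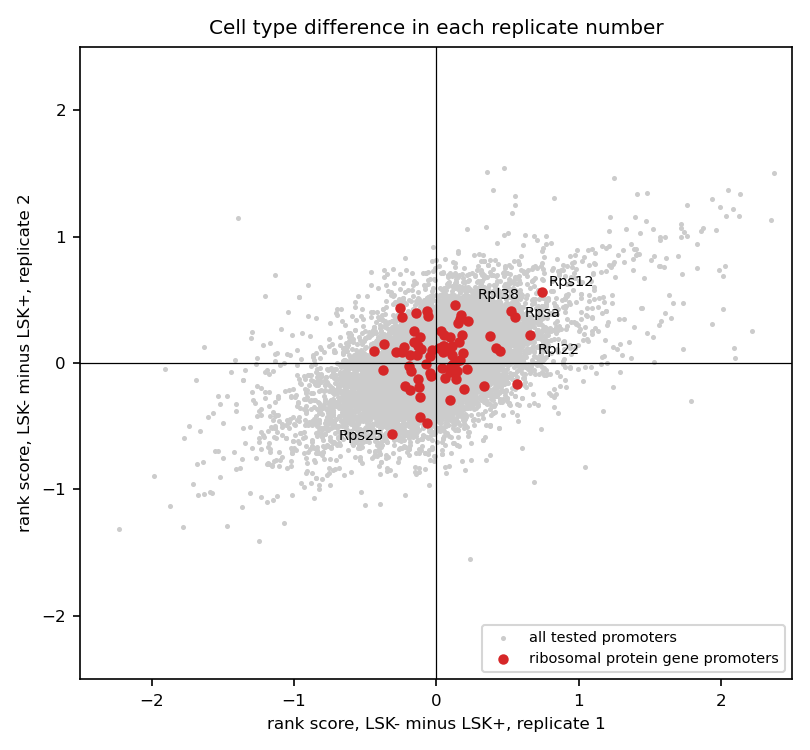
Difference of the rank score between LSK- and LSK+ libraries, averaged over the genotypes, in replicate 1 (horizontal axis) and replicate 2 (vertical axis), for all 13239 tested promoters (grey) and the 72 members (red). Rps12 lies at 0.74 and 0.56 and Rpsa at 0.55 and 0.37. Of the 72 members, 27 lie above 0 on both axes and 14 below 0 on both. Of the 13239 tested promoters, 4401 lie above 0 on both and 4341 below 0 on both. The axes end at 2.5 and leave out 8 grey points.

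A difference between genotypes that itself differs between the cell types was sought as an interaction. No member passed in limma, with or without the block, and 0 of 13239 promoters (0%) did without it. Without the block no member had an unadjusted p under 0.05, and with it 1 did, Rpl37, with a rank score interaction of 0.79 ± 0.34 and an adjusted p of 0.999. Its percentiles were 99.1 and 99.2 against 98.0 and 99.5 in LSK+ cells of WT and XistΔ/Δ, and 95.7 and 99.6 against 99.4 and 99.8 in LSK- cells.

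Fold and width of the peaks gave no call among the members. The median fold of the members was 14.6 ± 2.28 (SD, n = 2) for WT LSK+, 17.7 ± 5.30 for XistΔ/Δ LSK+, 15.0 ± 4.33 for WT LSK- and 16.8 ± 5.66 for XistΔ/Δ LSK-, and over all promoters the means were 12.6, 14.8, 13.5 and 15.2. The median was above that of all promoters in all 8 libraries. Replicate 1 lay at 11.98 to 14.0 and replicate 2 at 16.2 to 21.5. Within a cell type and replicate number the XistΔ/Δ library had the higher median in all 4 pairs, at 13.99 against 12.97 and 21.5 against 16.2 in LSK+ cells and at 12.8 against 11.98 and 20.8 against 18.1 in LSK- cells. The medians of all promoters were higher in XistΔ/Δ in the same 4 pairs, at 11.6 against 11.4, 17.95 against 13.7, 11.9 against 10.8 and 18.5 against 16.2. In limma on log2 fold, centred on the median of the 10922 promoters with a peak in all 8 libraries, 0 members and 0 promoters (0%) passed for XistΔ/Δ against WT, and 0 members and 0 promoters (0%) for LSK- against LSK+. With the block 424 promoters (3.88%) and 0 members passed for the cell types. The member nearest to passing was Rps25, with a log2 fold difference of -0.38 ± 0.10 in LSK- cells and an adjusted p of 0.0572 with the block. Unadjusted p fell under 0.05 for 1 member between genotypes and 2 between cell types without the block, and for 6 and 7 with it.

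The median width of the members was 726 ± 97.6 bp for WT LSK+, 790.0 ± 117 bp for XistΔ/Δ LSK+, 699 ± 85.2 bp for WT LSK- and 777 ± 152 bp for XistΔ/Δ LSK- (SD, n = 2). Replicate 1 had the wider peaks in every group. In limma on log2 width 0 members and 0 of 10922 promoters (0%) passed for either comparison, with or without the block. Without the block no member had an unadjusted p under 0.05 in either comparison, and with it 2 did in each.

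The clearest pattern was that of the replicate number, which the members shared with promoters in general. Among promoter peaks, 27 of 72 members ranked higher in replicate 1 than in replicate 2 in all 4 groups, where 31.9% of the 10922 promoters did, and 12 ranked lower in all 4, where 24.1% did. Rpl32 led with a mean percentile among promoters 36.9 higher in replicate 1, followed by Rps15a (32.3), Rpl19 (32.2) and Rpl24 (30.1). At the other end Rps10 was lower in replicate 1, with a difference of -27.8, and Rpl27a with one of -15.3. These genes were chosen after their values were seen. GC content moved with this difference. Over the 72 members, Spearman's rho between GC in the summit window and the difference of replicate 1 minus replicate 2 was -0.737 and Pearson's r was -0.743, and over the 10922 promoters rho was -0.710. This describes genes that share the same 8 libraries. The window of Rpl32 had 41.0% GC and that of Rps10 72.7%. In the 38 members at or below the median GC the median difference was 11.1, and in the 34 above it -2.41. The labels name 2 sequencing instruments without saying which library ran on which, and the part of the instrument in this pattern was not tested.

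**Figure D5:**
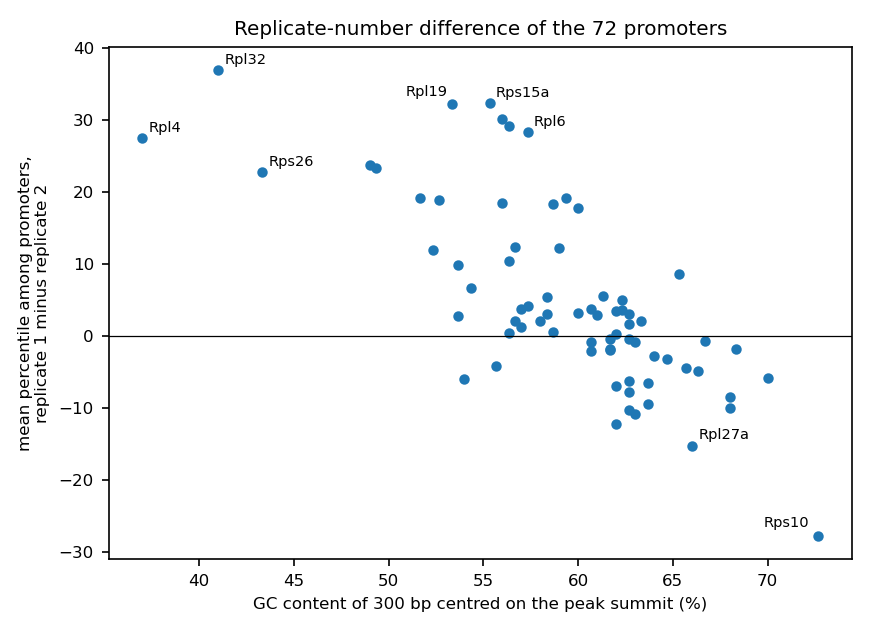
Mean percentile among promoters in the 4 replicate 1 libraries minus that in the 4 replicate 2 libraries (vertical axis, percentile points) against the GC content of 300 bp centred on the summit (horizontal axis, %), for each of the 72 members. Rpl32, at 41.0% GC, lies at 36.9 and Rps10, at 72.7% GC, at -27.8, and points fall from left to right.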

How the data were processed

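ATAC-seq libraries, 8 in all and 2 in each of 4 groups, were grouped by their sample labels. According to the study's methods and the submitters' processing notes, the authors trimmed reads with Trim Galore, aligned them to mm10 with Bowtie2 (2.3.5.1), kept fragments of mapping quality 30 or more with SAMtools (1.10) and called peaks in each library with MACS2 (2.2.7.1) on fragments at q 0.01. Use of an input control, duplicate removal and a Tn5 shift are not given in the sources used here. The deposited lists give for each peak the fold over background (a ratio), the −log10 p-value and −log10 q-value, a score and the summit. The lists hold no read counts, so the study's comparison of normalized reads per peak was not repeated, and depth is known only through the lists. The summit pileup and local background behind each fold and p were solved for in 100% of peaks.

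Peaks on chromosomes 1 to 19 and X were used. Start sites came from GENCODE M21 basic transcripts, and no peak ended beyond a chromosome of GRCm38.p6. Rank scores used promoters with a peak in at least 4 of 8 libraries (an absent peak tied lowest), and log2 fold and log2 width used promoters with a peak in all 8. Tests were made with limma (3.58.1) in R (4.3.3) with Benjamini-Hochberg adjustment over all promoters tested, called at 0.05. The genotype test of the rank score without the block was checked on simulated data. Shifts slightly larger than the largest genotype difference of a member were not recovered there. Libraries of the same replicate number carry a shared run code in the deposited names. Their deviations from the group means correlated at 0.525 to 0.722 in all 6 pairs of groups, so the number pairs the libraries and blocked values are given where they changed a call. Genes named are the members with the 5 highest and 5 lowest mean percentiles, the members called or else the 3 largest differences in each direction, the 3 widest and 3 narrowest, the Diamond-Blackfan and stalk lists, and related genes outside the rule. The alternatives are given after the results. Some genes that this rule names are not reported here. The members and lists were chosen with earlier results of these data known.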

Additional observations from a re-analysis of the deposited data

How the results depend on the processing

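Across the alternatives (the summit within 500 bp or 3 kb, equal list length, a −log10 q of at least 5, ranking by fold or summit pileup, a limma trend, other promoter sets, a logit scale, the replicate block and each library left out), 185 of 191 recomputed values stayed within their limit of change, and 140 of 145 counts of members called were 0. The limit for a difference of the median percentile was the SD between replicates, 2.69, larger than the cell type difference of 2.57. A drop of that difference to 0.404 therefore counted as within the limit. The other values were counts that began at 0 members called or at 72 members with a peak, so their agreement shows little. The exceptions were as follows. At equal list length the XistΔ/Δ minus WT difference of the members' median percentile was -0.126. The replicate block called 2 members between LSK- and LSK+, and the block with 1 library left out called 0 to 2 (without LSK+ XistΔ/Δ replicate 2 these were Rps12 and Rpl38). The block changed no other count of members called. Without each library in turn and without the block, 0 members were called in any comparison, and the difference of the median percentile ranged from 2.05 to 4.69 between genotypes and from 1.25 to 3.88 between cell types. LSK+ WT replicate 2 and LSK- WT replicate 2, the shortest lists, moved the genotype difference from 3.37 to 2.05 and 2.11, and LSK+ WT replicate 2 and LSK- WT replicate 1 moved the cell type difference from 2.57 to 1.25 and 1.31. Ranked by fold, the cell type difference was 0.404, and the median rank score differences of the members turned to -0.03 between genotypes and -0.07 between cell types. With a summit within 500 bp or at equal list length 71 members had a peak in all libraries. On the logit scale 92 promoters passed between genotypes, 167 between cell types and 38 for the interaction, none of them members. The ranking by summit pileup, the within-replicate values and the block with a library left out were chosen after seeing the data. The causes were not tested. With 2 libraries a group and no read counts, differences smaller than the spread between replicates can be missed. The block takes out the part of that spread shared by a replicate number. With it 789 promoters passed between cell types on the rank score, against 2 without it.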
